A study of Homo sapiens with 10 samples.

Results

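The Hippo pathway and its YAP/TEAD targets were followed in PANC-1 cells, an established human pancreatic carcinoma line, after exposure to LY. The set holds 36 genes of the 20263 in the table, chosen by name: 16 kinases and adaptors, 7 genes of the effectors YAP, TAZ, TEAD and their cofactor VGLL4, and 13 targets. LY is lycorine, an alkaloid of Amaryllidaceae plants known to inhibit protein synthesis. The LY libraries (LY-1 to LY-5) came from cells given 20 µM LY, and the DMSO libraries (NC-1 to NC-5) from cells given the vehicle alone, both for 24 h. The number per group is 5 by the sample labels and 4 by the series text, and all 10 columns were used. Whether the 5 came from separate cultures is not stated, so p-values measure the spread between these libraries. Values are TPM, a measure of each transcript as a share of its library's RNA, corrected for transcript length. In such values fewer cells of a type and less RNA per cell cannot be told apart.

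The Hippo pathway is a kinase relay that restrains growth. STK3 and STK4 (MST2 and MST1), with the scaffold SAV1, activate LATS1 and LATS2, which work with MOB1 and phosphorylate YAP and TAZ so that these stay out of the nucleus. Unphosphorylated YAP and TAZ enter the nucleus and bind the TEAD factors, which carry them to DNA. Some regulators of the relay, such as LATS2, AMOTL2 and NUAK2, are themselves known as YAP targets. CCN1, CCN2 and ANKRD1 are also known to respond to the serum response factor, so their levels do not read YAP alone.

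The keratins KRT8 and KRT18 were abundant, with 1182 to 1514 TPM of KRT8 in LY and 1069 to 1601 TPM in DMSO, and 941 to 1088 TPM of KRT18 in LY and 664 to 833 TPM in DMSO. KRT19 was lower in LY (15.8 to 24.6 TPM) than in DMSO (123 to 166 TPM), EPCAM was at most 1.76 TPM in LY and 1.32 TPM in DMSO, and KRT7 at most 0.22 TPM in LY and 0.30 TPM in DMSO. All 5 acinar and all 4 endocrine markers were listed at 0 in every library. Of 4 leukocyte markers, CD68 was present (131 to 232 TPM in LY and 34.5 to 47.3 TPM in DMSO), CD3E and LYZ were listed at 0 and PTPRC was at most 0.02 TPM. Summed endothelial markers ran from 2.74 to 3.32 TPM in LY and from 0.099 to 0.535 TPM in DMSO, with PECAM1 at 0. Nearly all of that sum was CDH5, with 2.68 to 3.22 TPM in LY and 0.099 to 0.535 TPM in DMSO. Summed fibroblast markers ran from 27.7 to 37.8 TPM in LY and from 69.2 to 115 TPM in DMSO, nearly all of it COL1A2, with DCN and LUM at 0. The part of these genes in the results was not tested. Control library NC-2 stood apart, with 37.5% of its TPM in mitochondrially encoded genes, against 12.2% to 14.1% in the other controls and 6.43% to 14.9% in LY. In the limma fit, 4639 of 11663 tested genes rose and 2899 fell. Rescaling the libraries moved that split to 3977 and 3756 (median-ratio), 4056 and 3697 (quantile) or 3452 and 4228 (upper-quartile). The log2 fold change of the median tested gene, 0.17 as deposited, was then 0.034, 0.050 or -0.058.

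Of the 36 genes, 35 passed the filter on low values (TPM no lower than 1 in 5 or more libraries), and AMOT did not. At an adjusted p under 0.05, 28 of the 35 rose in LY and 5 fell, where 64.6% of all tested genes changed, 39.8% rising and 24.9% falling. The median log2 fold change of the 35 was 0.71, which is 0.54 above that of all tested genes, and 12 rose by more than 1 on the log2 scale (12.4% of all tested genes did). LY and DMSO values did not overlap for 27 of them (49.4% of all tested genes). ANKRD1 and IGFBP3 passed the filter through the LY libraries alone, so they could only be higher there, without overlap. The 27 and the 0.54 include both. Without them 26 of 33 rose and 5 fell, the median was 0.68, and 10 rose by more than 1. Among all 35 genes, 33 were called. Across 22 alternative settings, 26 of these 33 calls held in every setting that could be fitted, 22 of them up and 4 down. ANKRD1 and IGFBP3, whose direction the filter fixed, are among those that held. The 7 that were lost somewhere belong to STK4, WWC1, AMOTL1, MOB1B, AJUBA, WWTR1 and VGLL4.

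**Figure D1:**
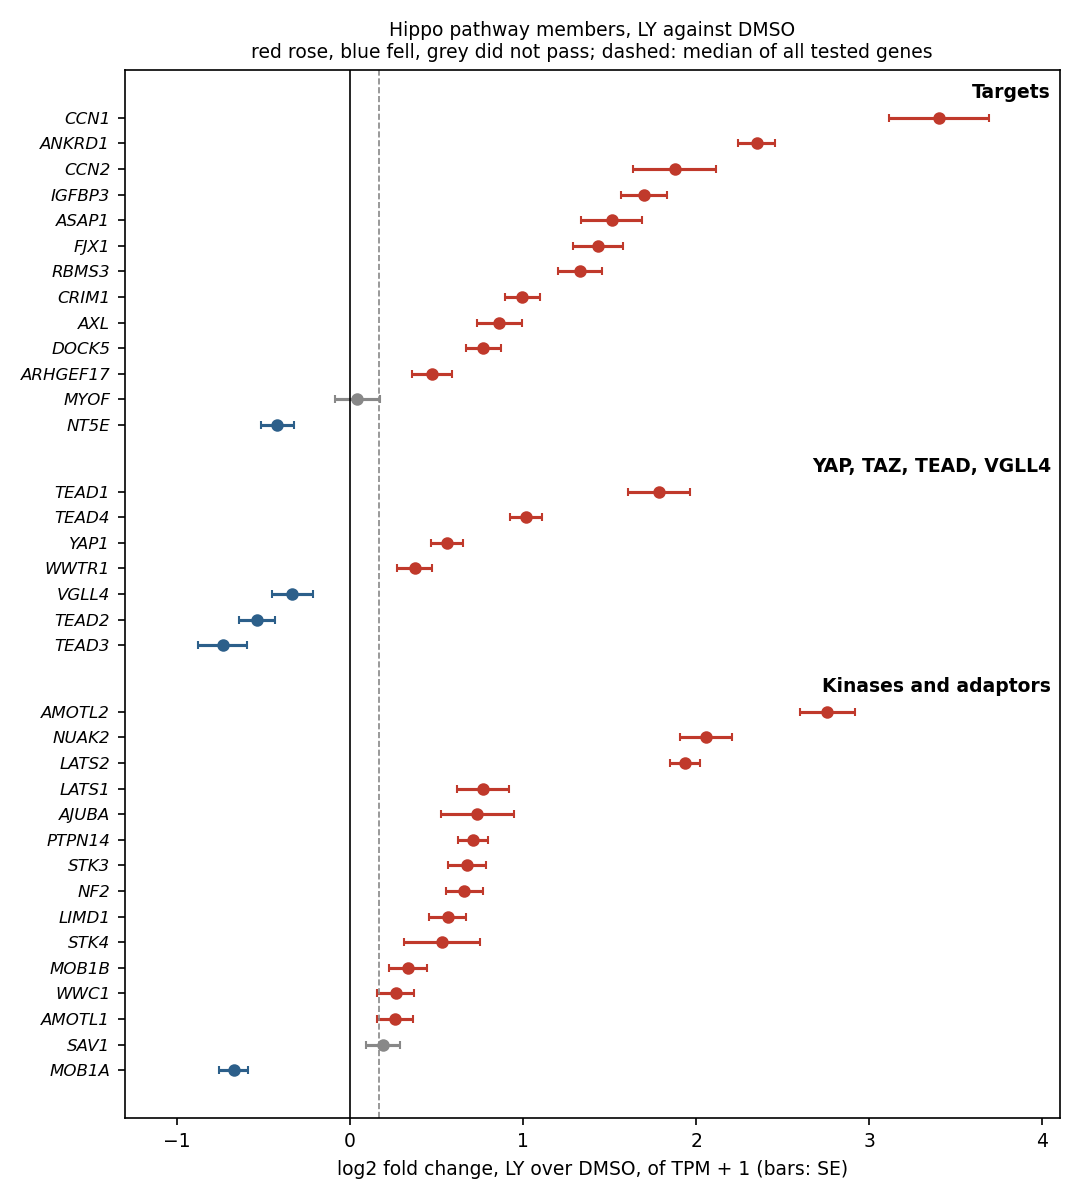
Log2 fold change of TPM + 1, LY over DMSO, for the 35 tested members by class, with bars for the SE of the limma fit (5 libraries per group) and a dashed line at the median of all tested genes (0.17). CCN1, AMOTL2 and ANKRD1 lie furthest to the right, and TEAD3, MOB1A, TEAD2, NT5E and VGLL4 lie to the left of 0.

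Among the targets, 11 of 13 rose (84.6%, against 39.8% of all tested genes). NT5E fell (7.69%, against 24.9%) and MYOF did not pass. The median log2 fold change was 1.33, against 0.17 for all tested genes. Without ANKRD1 and IGFBP3, whose direction the filter fixed, 9 of 11 rose (81.8%) and the median was 0.997. The target with the largest rise was CCN1 (ENSG00000142871, hg38 chromosome 1, 85580761 to 85583962), a secreted matrix protein that binds integrins. CCN1 measured 952, 1090.3, 922, 937 and 937 TPM in LY-1 to LY-5, against 61.0, 67.8, 57.0, 159 and 161 TPM in NC-1 to NC-5. Every LY library lay far above every control, and the lowest LY value was 5.72 times the highest DMSO value. Within the controls, NC-4 and NC-5 were higher than the other 3. Its log2 fold change was 3.40 ± 0.29 (SE, limma adjusted p = 9.8e-07), the rank 8 increase among all tested genes, and 3.94 without NC-4 and NC-5 (adjusted p = 1.68e-07).

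CCN2 (ENSG00000118523, chromosome 6, 131948176 to 131951373), a related matrix protein also called connective tissue growth factor, measured 37.3, 42.7, 32.6, 39.2 and 43.3 TPM in LY, against 6.66, 7.22, 7.32, 15.7 and 16.2 TPM in DMSO. The groups did not overlap, and NC-4 and NC-5 were again the high controls. CCN2 rose by 1.88 ± 0.24 on the log2 scale (limma adjusted p = 2.51e-05). The ratio of CCN1 to CCN2 ran from 21.6 to 28.3 in LY and from 7.79 to 10.1 in DMSO. NC-4 and NC-5 thus held more of both transcripts at a ratio close to that of the other controls. The 2 genes rose by unequal amounts: log2 CCN1 less log2 CCN2 differed between LY and DMSO by 1.53 (two-sided exact permutation p = 0.0079, the smallest that 5 against 5 libraries can give, adjusted p = 0.0108 over 15 pairs of related members).

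**Figure D2:**
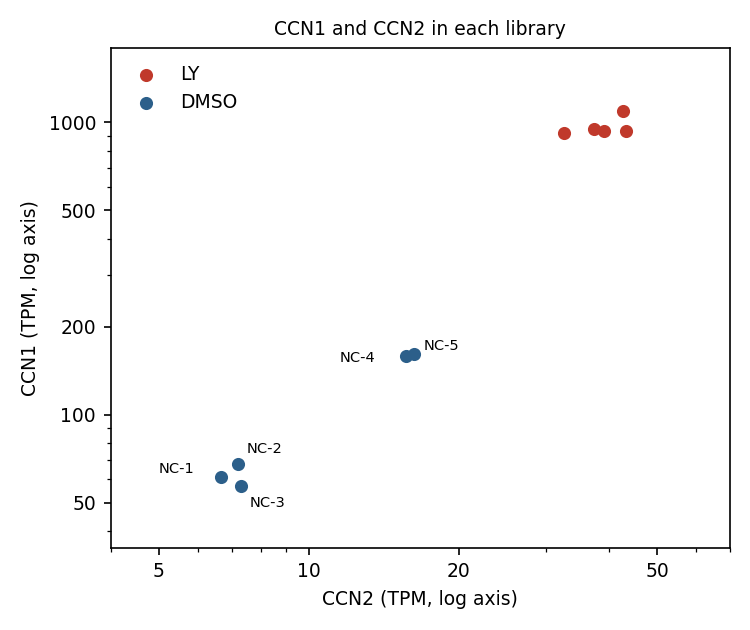
CCN1 against CCN2 in each of the 10 libraries, in TPM on log axes. The 5 LY libraries sit at 922 TPM of CCN1 or more, and the controls lie at 57.0 to 67.8 TPM in NC-1, NC-2 and NC-3 and at 159 and 161 TPM in NC-4 and NC-5.

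ANKRD1 (ENSG00000148677, chromosome 10, 90912096 to 90921276), an ankyrin repeat protein best known from heart muscle, measured 3.92, 3.22, 4.91, 4.67 and 4.21 TPM in LY. It was listed at 0 in 4 of the 5 DMSO libraries and at 0.056 TPM in NC-1. The fitted log2 fold change, 2.35 ± 0.11, depends on the pseudocount and was 5.28 with a pseudocount of 0.1. IGFBP3, which binds insulin-like growth factors, had 2.39, 2.52, 2.32, 4.08 and 2.66 TPM in LY, against 0.14, 0.12, 0.16, 0.34 and 0.034 TPM in DMSO. Both genes were low even in LY, and their groups did not overlap. The fitted change of IGFBP3 was 1.70 ± 0.13 and 3.56 with a pseudocount of 0.1. Both are given as descriptions, with no p, because the filter fixed their direction.

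The stretches of 250 bases before the start sites of CCN2 and ANKRD1 are shown because they hold more than 1 copy of GGAATG, the core of the TEAD recognition sequence, and that of NUAK2, a target that acts on the relay, because it was the other such window. Capitals mark GGAATG or its reverse complement CATTCC. The windows are RefSeq sequence on GRCh38.p14, read 5′ to 3′ on the gene's strand, and all 3 genes lie on the minus strand. CCN2 is chr6:131951373-131951622, ANKRD1 is chr10:90921088-90921337 and NUAK2 is chr1:205321746-205321995. Start sites here are those of RefSeq, which differ from the GENCODE positions given for the genes. GENCODE places the start of ANKRD1 at 90921276 and that of NUAK2 at 205321791, inside these windows. Part of each of these 2 windows thus lies within the gene by GENCODE.
CCN2: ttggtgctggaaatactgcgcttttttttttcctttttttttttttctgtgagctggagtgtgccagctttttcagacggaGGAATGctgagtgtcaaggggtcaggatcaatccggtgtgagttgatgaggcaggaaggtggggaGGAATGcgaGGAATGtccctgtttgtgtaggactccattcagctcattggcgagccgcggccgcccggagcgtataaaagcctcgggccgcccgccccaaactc
ANKRD1: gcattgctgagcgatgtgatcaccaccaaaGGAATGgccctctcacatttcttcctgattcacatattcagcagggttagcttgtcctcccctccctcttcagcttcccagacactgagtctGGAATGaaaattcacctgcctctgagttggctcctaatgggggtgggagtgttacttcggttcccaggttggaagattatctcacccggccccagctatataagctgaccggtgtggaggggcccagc
NUAK2: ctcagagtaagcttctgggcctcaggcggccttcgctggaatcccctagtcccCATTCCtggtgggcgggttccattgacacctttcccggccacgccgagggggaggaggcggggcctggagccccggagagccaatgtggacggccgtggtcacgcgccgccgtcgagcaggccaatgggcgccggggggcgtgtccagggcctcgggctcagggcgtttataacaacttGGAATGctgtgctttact
The CCN2 window has 3 copies, beginning at bases -169, -104 and -95, and ANKRD1 has 2, at -220 and -128, all on the gene's strand. NUAK2 has 1 at -18 on its own strand and 1 at -197 on the other strand. By GENCODE positions the ANKRD1 copy at -128 and the NUAK2 copy at -18 lie within the gene. In windows that reach from 250 bases before to 50 bases after the start, 27 of the 36 members were matched to the RefSeq table used here. The other 9 are STK3, LIMD1, TEAD1, TEAD4, CCN1, CRIM1, ARHGEF17, ASAP1 and DOCK5. GGAATG on either strand occurred in 6 of these 27 (22.2%) and in 14% of 27305 windows of that length. The other 3 were LATS2 (base 10 after the start), PTPN14 (-200) and YAP1 (-162). The PTPN14 copy also lies within its gene by GENCODE positions. By class, that is 2 of 8 targets, 3 of 14 kinases and adaptors and 1 of 5 effectors. At least 2 copies occurred in 1.37% of all windows and at least 3 in 0.146%. The AP-1 sequence TGANTCA occurred in ANKRD1 (-195) and MOB1B (-44) and in 7.76% of all windows, and the CArG box of the serum response factor in none of the 27 matched members and in 1.29% of all windows. No copy of one motif overlapped a copy of another. These matches describe letters in the window and were not tested for binding.

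ASAP1, which inactivates the GTPase ARF, measured 236, 211, 185, 169 and 154 TPM in LY, against 65.6, 101, 55.8, 56.7 and 57.9 TPM in DMSO. NC-2 was the high control, the groups did not overlap, and the log2 fold change was 1.51 ± 0.17 (limma adjusted p = 1.18e-05) and 1.66 without NC-2. FJX1, a secreted protein related to the fly kinase four-jointed, averaged 58.2 ± 7.11 TPM in LY and 21.1 ± 3.90 TPM in DMSO (SD, n = 5 each) and rose by 1.43 ± 0.14. The RNA-binding gene RBMS3 averaged 5.30 ± 0.357 TPM in LY and 1.53 ± 0.415 TPM in DMSO and rose by 1.33 ± 0.13. CRIM1, a membrane protein that binds bone morphogenetic proteins, averaged 135 ± 15.8 TPM in LY and 67.0 ± 6.29 TPM in DMSO and rose by 0.997 ± 0.10. None of these genes overlapped between the groups.

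Smaller rises were measured for the receptor tyrosine kinase AXL (0.86 ± 0.13), the RAC activator DOCK5 (0.77 ± 0.10) and the guanine nucleotide exchange factor ARHGEF17 (0.47 ± 0.11). AXL averaged 107 ± 7.74 TPM in LY and 59.4 ± 12.1 TPM in DMSO. NT5E, the surface enzyme CD73 that makes adenosine, went the other way. It measured 20.6, 17.3, 19.0, 16.9 and 18.8 TPM in LY, against 25.2, 27.9, 23.3, 22.7 and 26.5 TPM in DMSO, with no overlap (log2 fold change -0.42 ± 0.094, limma adjusted p = 0.00202). MYOF, a membrane repair protein, averaged 308 ± 44.9 TPM in LY and 299.5 ± 41.7 TPM in DMSO and did not pass (0.042 ± 0.13, limma adjusted p = 0.788). Log2 fold changes of the targets ran from -0.42 to 3.40.

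**Figure D3:**
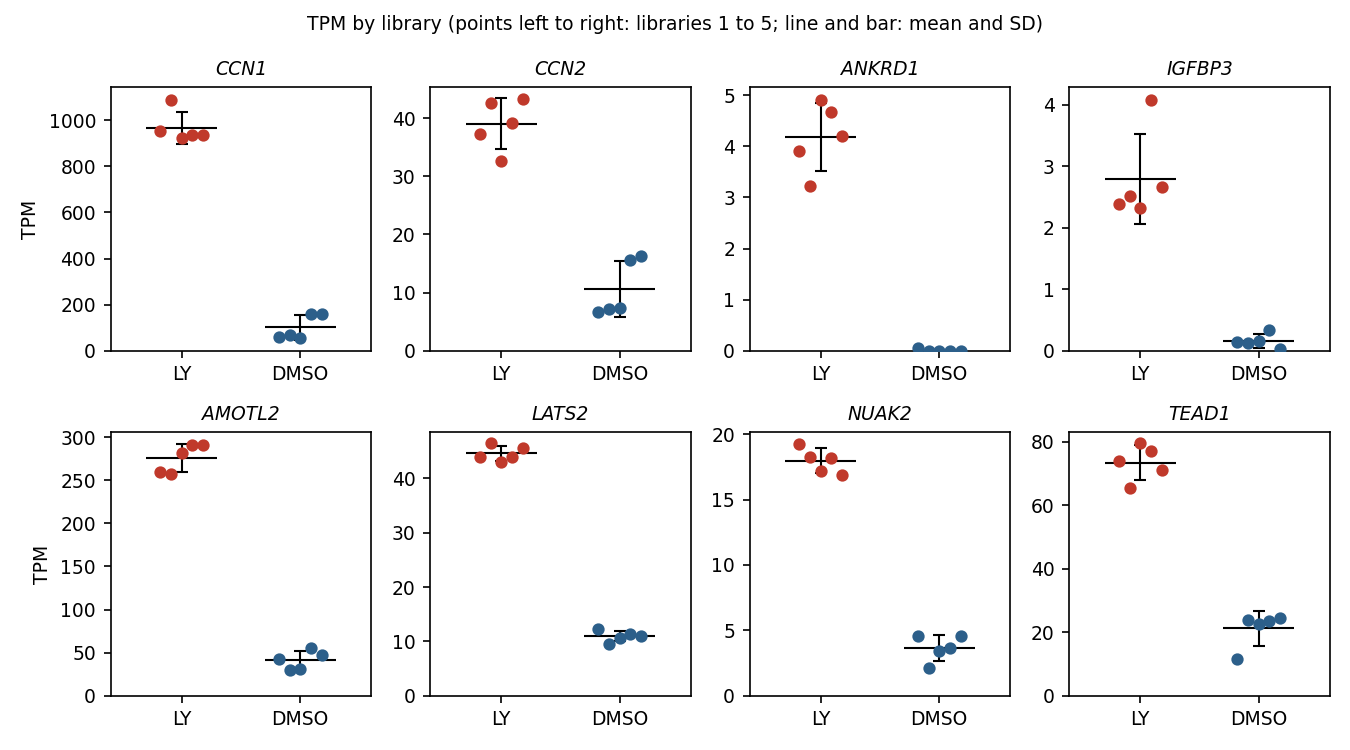
TPM in each library for 8 members that rose, with LY on the left and DMSO on the right of each panel, points in library order from 1 to 5, and a line and bar for mean and SD (none where a library was listed at 0). In all 8 panels the LY points lie above every DMSO point, NC-4 and NC-5 are the high controls of CCN1 and CCN2, and NC-1 is the low control of TEAD1.

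Of 15 tested kinases and adaptors 13 rose (86.7%, against 39.8% of all tested genes). MOB1A fell (6.67%, against 24.9%) and SAV1 did not pass. The median log2 fold change was 0.66. The count that rose depends on scaling: 9 under median-ratio, 11 under quantile and 8 under upper-quartile scaling. Of 11663 tested genes 3977, 4056 and 3452 rose in these settings. The count was 10 to 13 with 1 library left out and 10 with no filter. MOB1A fell in each. The largest rise was that of AMOTL2 (ENSG00000114019, chromosome 3, 134355874 to 134375479), an angiomotin scaffold that binds YAP and holds it at cell junctions. AMOTL2 measured 260.1, 257, 281, 291 and 291 TPM in LY, against 42.0, 29.3, 31.5, 55.0 and 47.6 TPM in DMSO. The lowest LY value was 4.68 times the highest control, and NC-4 and NC-5 were the high controls here too. The log2 fold change was 2.76 ± 0.16 (limma adjusted p = 5.96e-08), rank 27 of all tested genes.

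Of its relatives, AMOTL1 rose less. AMOTL1 averaged 7.25 ± 0.680 TPM in LY and 5.89 ± 0.613 TPM in DMSO (0.26 ± 0.10, limma adjusted p = 0.0404), and its call was lost in 12 of the 22 alternatives. AMOT was at most 0.04 TPM in any library. AMOTL2 made up 97.4 ± 0.229% of the summed TPM of the family in LY and 86.9 ± 2.74% in DMSO. The difference of AMOTL2 less AMOTL1 was larger in LY than in DMSO by 2.49 on the log2 scale (exact permutation adjusted p = 0.0108).

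LATS2 (ENSG00000150457, chromosome 13, 20973032 to 21061547), a kinase that phosphorylates YAP and TAZ, measured 44.0, 46.6, 43.1, 43.9 and 45.5 TPM in LY, against 12.2, 9.56, 10.6, 11.4 and 10.98 TPM in DMSO. The 5 LY values were close together, all above every control, and LATS2 rose by 1.94 ± 0.087 (limma adjusted p = 1.26e-08). LATS1, which has the same role, measured 39.3, 28.1, 36.03, 26.8 and 28.8 TPM in LY, against 17.8, 24.2, 15.7, 14.8 and 19.0 TPM in DMSO. LATS1 was higher in every LY library than in any control but rose less (0.77 ± 0.15, limma adjusted p = 0.000706). LATS2 less LATS1 was 0.49 ± 0.26 in LY and -0.68 ± 0.35 in DMSO (SD), a difference of 1.17 (exact permutation adjusted p = 0.0108). LATS2 thus held 58.6 ± 4.58% of the summed LATS level in LY and 37.9 ± 5.87% in DMSO.

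NUAK2, a kinase of the AMPK family known to restrain LATS, measured 19.3, 18.3, 17.2, 18.2 and 16.9 TPM in LY, against 4.54, 2.11, 3.45, 3.64 and 4.53 TPM in DMSO. With no overlap it rose by 2.06 ± 0.15 (limma adjusted p = 3.13e-07). PTPN14, a phosphatase that binds YAP and favours LATS activity, averaged 16.4 ± 1.14 TPM in LY and 9.64 ± 0.521 TPM in DMSO and rose by 0.71 ± 0.087. Among the upstream activators, NF2 (merlin), which brings LATS to the membrane, averaged 72.0 ± 6.38 TPM in LY and 45.3 ± 5.38 TPM in DMSO (0.66 ± 0.11, limma adjusted p = 0.000156). WWC1 (KIBRA), its partner, rose by 0.26 ± 0.11 (limma adjusted p = 0.0494), a call lost in 16 of the 22 alternatives.

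The LIM proteins AJUBA and LIMD1, which bind and inhibit LATS, both rose. LIMD1 averaged 13.0 ± 0.808 TPM in LY and 8.54 ± 1.27 TPM in DMSO (0.57 ± 0.11, no overlap). AJUBA measured 18.9, 15.3, 19.1, 13.0 and 7.40 TPM in LY, against 8.82, 7.32, 8.52, 7.19 and 8.44 TPM in DMSO. LY-5 lay within the control range, and the fold change of 0.74 ± 0.21 (limma adjusted p = 0.00875) was 0.95 without LY-5 and lost its call with upper-quartile scaling (0.51, adjusted p = 0.0522).

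At the top of the relay, STK3 averaged 18.8 ± 2.46 TPM in LY and 11.3 ± 0.957 TPM in DMSO and rose by 0.68 ± 0.11 without overlap. STK4 measured 22.7, 28.3, 29.1, 14.7 and 30.6 TPM in LY, against 25.7, 13.4, 13.6, 14.5 and 17.7 TPM in DMSO. The groups overlapped, since NC-1 lay above LY-1 and LY-4, and NC-5 above LY-4. The call of STK4 (0.53 ± 0.22, limma adjusted p = 0.0488) was lost in 15 of 22 alternatives. SAV1 averaged 12.4 ± 1.17 TPM in LY and 10.7 ± 0.765 TPM in DMSO and did not pass (0.19 ± 0.097, limma adjusted p = 0.103).

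The MOB1 coactivators of LATS, which are close paralogs, parted. MOB1A measured 38.6, 35.5, 41.3, 40.3 and 34.5 TPM in LY, against 59.9, 64.7, 59.7, 62.7 and 58.4 TPM in DMSO, and fell by 0.67 ± 0.084 on the log2 scale (limma adjusted p = 2.32e-05). No LY library reached any control. MOB1B averaged 8.60 ± 1.21 TPM in LY and 6.57 ± 0.430 TPM in DMSO (0.34 ± 0.11, limma adjusted p = 0.0166), and its call was lost in 3 of the 22 alternatives (adjusted p from 0.109 to 0.35). MOB1A less MOB1B was 2.03 ± 0.18 in LY and 3.04 ± 0.086 in DMSO (SD), a difference of -1.01 (exact permutation adjusted p = 0.0108).

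Of the 7 effector genes 4 rose (57.1%, against 39.8% of all tested genes) and 3 fell (42.9%, against 24.9%). The median log2 fold change was 0.37. YAP1 measured 79.7, 89.3, 97.8, 100.2 and 85.9 TPM in LY, against 61.1, 54.6, 62.7, 59.2 and 67.5 TPM in DMSO (0.56 ± 0.095, limma adjusted p = 0.000249). WWTR1, which encodes TAZ, measured 249.8, 279, 234, 224 and 286 TPM in LY, against 184, 187, 216, 183 and 211 TPM in DMSO (0.37 ± 0.10, limma adjusted p = 0.00625). Neither gene overlapped between the groups, but the call of WWTR1 was lost under median-ratio (0.23, adjusted p = 0.0825), quantile (0.10, adjusted p = 0.422) and upper-quartile scaling (0.13, adjusted p = 0.299) and without the mitochondrial and 50 most abundant genes (0.17, adjusted p = 0.193). WWTR1 was the more abundant of the pair in every library, with 73.6 ± 3.54% of their sum in LY and 76.2 ± 1.12% in DMSO. The difference of YAP1 less WWTR1 changed by 0.19 (-1.48 ± 0.26 in LY and -1.67 ± 0.089 in DMSO) and did not pass (exact permutation p = 0.222, adjusted p = 0.256).

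The TEAD factors, which bind DNA for YAP and TAZ, moved in opposite directions. TEAD1 (ENSG00000187079, chromosome 11, 12674591 to 12944483) measured 73.9, 65.4, 79.5, 77.0 and 71.0 TPM in LY, against 11.6, 23.9, 22.7, 23.4 and 24.4 TPM in DMSO. NC-1 was far below the other controls. TEAD1 rose by 1.79 ± 0.18 (limma adjusted p = 3.98e-06), and by 1.59 without NC-1 (adjusted p = 3.04e-07). TEAD4 measured 232, 205, 179, 201 and 209 TPM in LY, against 108, 89.6, 106, 103 and 97.3 TPM in DMSO, and rose by 1.02 ± 0.095 (limma adjusted p = 2.08e-06).

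TEAD2 measured 18.5, 21.9, 21.7, 17.5 and 20.1 TPM in LY, against 31.9, 25.5, 33.2, 29.9 and 26.6 TPM in DMSO, and fell by 0.54 ± 0.11 on the log2 scale (limma adjusted p = 0.000795). TEAD3 measured 6.44, 7.91, 5.01, 5.30 and 7.83 TPM in LY, against 13.7, 10.9, 11.6, 11.1 and 9.55 TPM in DMSO, and fell by 0.73 ± 0.14 (limma adjusted p = 0.000624). None of the TEAD genes overlapped between the groups, and all their directions and calls held under the 22 alternatives. By TPM the order in LY was TEAD4, TEAD1, TEAD2, TEAD3, and in DMSO TEAD4, TEAD2, TEAD1, TEAD3. In LY no neighbours in this order overlapped. In DMSO the lowest value of TEAD1, in NC-1, lay within the range of TEAD3, and no other neighbours overlapped. TEAD1 held 24.1 ± 2.55% of the summed TEAD level in LY and 13.1 ± 3.59% in DMSO, and TEAD2 6.57 ± 0.888% in LY and 18.03 ± 1.16% in DMSO. The sum itself was 305 ± 16.8 TPM in LY and 163 ± 9.22 TPM in DMSO.

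**Figure D4:**
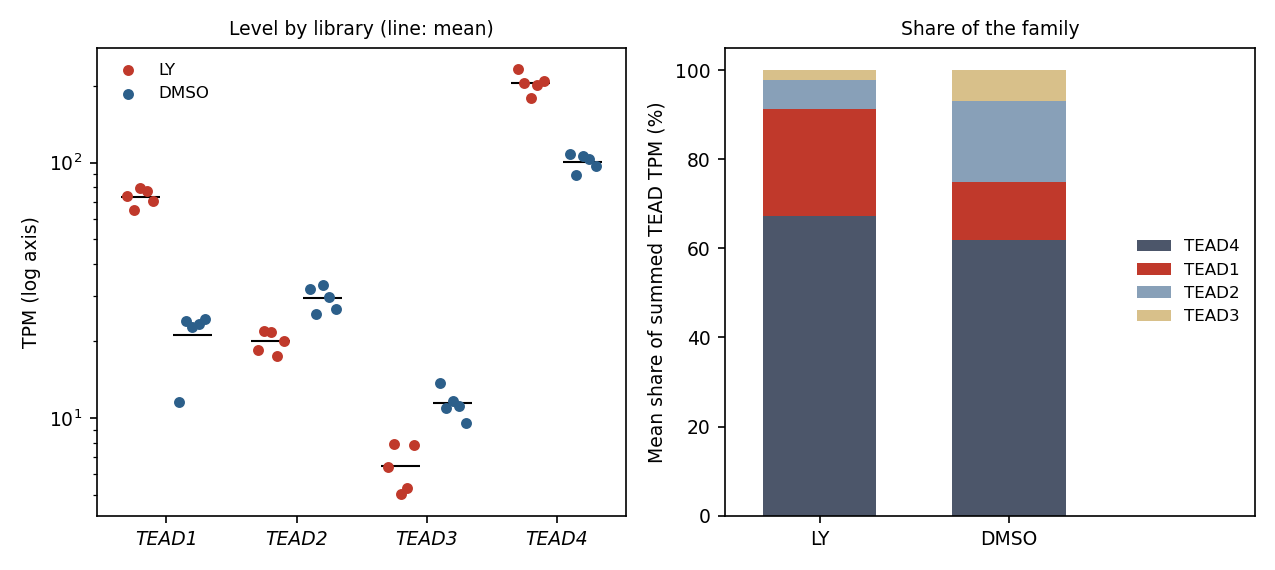
Left, TPM of the TEAD genes in each library on a log axis, LY and DMSO side by side, with a line at the mean of 5 libraries. Right, the mean share of each gene in the summed TEAD TPM, where the share of TEAD1 is 24.1% in LY and 13.1% in DMSO and that of TEAD2 is 6.57% in LY and 18.03% in DMSO.

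Within the TEAD family, 5 of 6 pairs changed by unequal amounts (exact permutation adjusted p = 0.0108 for each). TEAD1 gained on TEAD3 by 2.52, on TEAD2 by 2.32 and on TEAD4 by 0.77 on the log2 scale, and TEAD4 gained on TEAD3 by 1.75 and on TEAD2 by 1.55. TEAD3 less TEAD2 changed by -0.20 and did not pass (exact permutation p = 0.143, adjusted p = 0.179). VGLL4, a cofactor that competes with YAP for TEAD, averaged 33.3 ± 2.41 TPM in LY and 42.5 ± 6.62 TPM in DMSO. Its call (-0.33 ± 0.12, limma adjusted p = 0.0272) was lost when any of LY-3, LY-4, NC-1, NC-3 or NC-4 was left out (adjusted p from 0.0587 to 0.0712), and without NC-4 and NC-5 (0.0961). The groups overlapped, since NC-2 held 31.9 TPM of VGLL4.

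Over all families, 11 of 15 pairs of related members changed by unequal amounts, and LY and DMSO differences did not overlap for the same 11. Some pairs share a gene, as in the TEAD family, so they are not separate results. No share was taken over unrelated pairs, so the count describes these pairs only. The differences of AMOT with AMOTL1 or AMOTL2 only restate the other gene, since AMOT was near 0. AJUBA and LIMD1 (0.17, exact permutation adjusted p = 0.485, but 0.36 and 0.0397 without LY-5), STK3 and STK4 (0.14, exact permutation adjusted p = 0.667), YAP1 and WWTR1, and TEAD3 and TEAD2 did not pass. These differences within a library do not depend on a common scaling of the libraries, apart from the pseudocount.

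Further genes of the pathway outside the 36 were examined from lists. Of 26 upstream regulators 21 were tested, 11 rose (52.4%, against 39.8% of all tested genes), 4 fell (19%, against 24.9%) and 6 did not pass. FRMD6 (willin), an activator upstream of the relay, averaged 55.8 ± 6.47 TPM in LY and 8.92 ± 2.07 TPM in DMSO and rose by 2.54 ± 0.15. STK38L, a kinase related to LATS, rose by 1.30 ± 0.13, and PALS1, a polarity scaffold, by 1.05 ± 0.11. MAP4K2, a kinase that can activate LATS, averaged 4.23 ± 0.685 TPM in LY and 20.1 ± 3.07 TPM in DMSO and fell by 2.01 ± 0.13 on the log2 scale. The polarity gene LLGL1 (-1.45 ± 0.19) and the kinase MINK1 (-0.52 ± 0.12) fell as well.

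Of 20 genes of the STRIPAK phosphatase complex, which counters STK3 and STK4, and of the 14-3-3 and casein kinase proteins that hold or mark YAP for decay, 11 rose, YWHAQ fell (-0.34 ± 0.095) and 8 did not pass. The 12 that changed are 60% of the list, close to the 64.6% of all tested genes. By direction, 55% rose, against 39.8% of all tested genes, and 5% fell, against 24.9%. PPP2CA, a catalytic subunit of phosphatase 2A, rose by 0.99 ± 0.13, casein kinase CSNK1E by 0.85 ± 0.19 and the STRIPAK scaffold STRN4 by 0.79 ± 0.14. The TEAD cofactors VGLL1 and VGLL2 were listed at 0 in every library and VGLL3 was below the filter. Of 12 further published targets 7 were tested, of which 6 rose (39.8% of all tested genes did) and BIRC5 did not pass (0.034 ± 0.29). GADD45A, a growth arrest gene, rose by 3.21 ± 0.24 and the EGF receptor ligand AREG by 2.12 ± 0.12. AREG averaged 372 ± 42.7 TPM in LY and 85.0 ± 12.7 TPM in DMSO. F3, CCDC80, TGFB2, THBS1 and INHBA were below the filter. GADD45A also answers to other pathways.

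STK3, SAV1, MOB1B, AJUBA, TEAD2, VGLL4, CRIM1 and RBMS3 overlap another gene of the table on hg38, and the sources used here do not say how reads in shared stretches were counted, so their values are less certain.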

How the data were processed

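RNA sequencing of 10 PANC-1 libraries was deposited by the authors as TPM, 1 column per library, and each column sums to 999932 to 999967. Libraries were made with an mRNA kit, per the labels' protocols. GRCm38, mm10 and hg38 are listed without roles, per the submitters' processing notes, while the table lists human Ensembl genes. An aligner, counter or annotation was not given in the sources used here. Read totals cannot be had from TPM, so depth is unknown and intervals for counting error are left out. Control columns, named NC, were used as the DMSO group, with no link to single samples. Every column was mapped. Symbols came from a table of gene names (20148 IDs) and GENCODE release 29 (76 more), which left 39 unnamed. Positions are GENCODE release 29 on hg38.

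Genes that reached 1 TPM in 5 or more libraries (11663) were fitted in R 4.3.3 with limma 3.58.1 on log2(TPM + 1), with group as the only term and a mean-variance trend. P-values were adjusted by Benjamini-Hochberg over all tested genes, with 0.05 as the threshold. Each log2 fold change sets LY over DMSO, with its SE, on the scale of log2(TPM + 1), which understates changes of low genes. The fit was run on simulated data with changes planted in a small share of genes. Here 64.6% of tested genes changed, so that run sets no error rate for these libraries. Pairs of related members were set against each other with an exact two-sided permutation test of the difference of their log2 values, adjusted over 15 pairs. The members, classes, lists, pairs and alternatives were chosen with earlier results of these data known. Alternatives were pseudocounts of 0.1 and 0.5, no filter, a minimum TPM of 5, scaling by median ratios, quantiles or upper quartiles, a fit without the mitochondrial and the 50 most abundant genes, limma without trend or with robust moderation, leaving out each library, and omission of NC-2 together with scaling by median ratios. Leaving out NC-4 and NC-5 together, and counts without ANKRD1 and IGFBP3, were chosen after seeing the data. All 36 members are named, and of each further list the 3 changed genes with the largest rise and the 3 with the largest fall. GADD45A and AREG fall under that rule, and 1 further gene under it counts in the totals but is not reported here. BIRC5, CD68, COL1A2, KRT7 and KRT19 were named after their values were seen.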

Additional observations from a re-analysis of the deposited data

Results flagged for a closer look

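In 8 of 72 groups of 5 libraries (the 36 members in LY and in DMSO), 1 library stood apart from the rest by Dixon's ratio above 0.71, where chance gives about 1 in 20. NC-1 accounts for 3 of these and NC-2 for 2. TEAD1 measured 11.6 TPM in NC-1, against 22.7 to 24.4 TPM in the other controls. CRIM1 measured 77.9 TPM in NC-1, against 62.6 to 66.3 TPM in the other controls, and ANKRD1 0.056 TPM in NC-1, against 0 in the others. With the other controls at 0, any ANKRD1 reading above 0 would be flagged, so the 1 in 20 does not hold for it. FJX1 was low in NC-2 with 14.2 TPM (22.2 to 23.3 TPM in the other controls), and ASAP1 was high there with 101 TPM (55.8 to 65.6 TPM in the other controls). In LY, CCN1 measured 1090.3 TPM in LY-2 (922 to 952 TPM in the others), CRIM1 162 TPM in LY-3 (125 to 133 TPM in the others) and IGFBP3 4.08 TPM in LY-4 (2.32 to 2.66 TPM in the others). None of these 8 values lay within the range of the other group.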

How the results depend on the processing

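Over 22 alternatives, 702 of 767 values of single members kept their direction and side of the threshold, 57 lost their call and 8 changed sign. The 8 were those of MYOF and SAV1, neither called as reported. MYOF was -0.10 under median-ratio, -0.20 under quantile and -0.20 under upper-quartile scaling, -0.16 without the mitochondrial and 50 most abundant genes, -0.11 without NC-2 under median-ratio scaling, and -0.036 to 0.095 with 1 library left out. SAV1 was -0.037 with upper-quartile scaling. The median of all tested genes was 0.016 with no filter, 0.034, 0.050 and -0.058 with median-ratio, quantile and upper-quartile scaling, -0.016 without the most abundant genes, and 0.027 without NC-2 under median-ratio scaling. In the same order from median-ratio scaling on, the median of kinases and adaptors was 0.52, 0.52, 0.42, 0.46 and 0.52, and with upper-quartile scaling 8 of them rose. The effector median was 0.10 with quantile and 0.13 with upper-quartile scaling and 0.17 without the most abundant genes. The target median was 0.93 with a minimum TPM of 5, which leaves out ANKRD1, IGFBP3 and RBMS3. Fallen genes of the further lists together numbered 5, but 8 with median-ratio and with quantile scaling, 11 with upper-quartile scaling and without the most abundant genes, 8 without NC-2 under median-ratio scaling, 3 without NC-4 and NC-5, and 4 to 8 with 1 library left out (8 without NC-2). Of the paralog pairs, 10 to 12 passed. AJUBA less LIMD1 passed without LY-5. STK3 less STK4 changed by -0.072 to 0.30 with 1 library left out, and AMOTL1 less AMOT was lost with upper-quartile scaling (0.067), without the most abundant genes (0.11) and without NC-2 under median-ratio scaling (0.16). The cause was not tested. Depth is unknown, so it sets no limit that can be stated. No paired analysis was possible because the numbers of the control columns are not tied to numbered samples.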
